A study of Mus musculus with 10 samples.

Results

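The 4 teneurins, the 3 latrophilins and the 3 FLRT proteins form a family of partners that bind each other across the cell gap. The genes are Tenm1, Tenm2, Tenm3 and Tenm4, Adgrl1, Adgrl2 and Adgrl3, and Flrt1, Flrt2 and Flrt3. They were chosen by symbol, with their values in this study already known, and all 10 were found among the 18453 genes counted in each library. All 10 also passed the filter on low counts, which 14393 genes passed. Each was represented by at least 196 reads in every library.

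The libraries came from CA3, the hippocampal field whose pyramidal neurons receive mossy fibres from the dentate gyrus, of C57BL/6J mice whose left and right CA3 had been injected stereotaxically with an adeno-associated virus. In 5 libraries, called scramble here, the virus was AAV-shRNA(scramble), a hairpin with no intended target. In the other 5, called knockdown here, it was AAV-shRNA(mef2c), a hairpin against the transcription factor Mef2c. The virus was aimed at pyramidal neurons. The growth protocol speaks of male mice and the treatment protocol of either sex, and the labels give no age, no time after injection, no promoter and no count of infected cells, and the dissected piece also holds cells that the virus did not reach. Nor do they tie each library to an animal of its own, and the errors and p-values below measure the spread between libraries, which may be technical.

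Teneurins are very large proteins that cross the membrane with their ends reversed from the usual order, so that a barrel-shaped region rich in repeats stands outside the cell. Latrophilins are adhesion G protein-coupled receptors whose outer part binds teneurins and FLRT proteins at separate places. FLRT proteins carry leucine-rich repeats and also bind Unc5 receptors. In the hippocampus these contacts are known for matching axons with their target cells and for setting up particular synapses, with Tenm3 and Adgrl2 on facing cells in the path from CA1 to the subiculum.

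Library totals ran from 14701928 to 17798090 counts, and values below are CPM, each count scaled to the same library size after TMM scaling. TMM gives each library a single scaling factor and does not correct for differing cell types. Mef2c itself averaged 205 ± 60.7 CPM in the scramble group and 162 ± 71.9 CPM in the knockdown group (SD, n = 5 each), a difference that did not pass the test. The library labelled knockdown 5 goes against its label, with 286 CPM of Mef2c, above 4 of the 5 scramble libraries. The other 4 knockdown libraries, at 111 to 163 CPM, lay below every scramble library, and scramble library 4 had the most, 312 CPM. These 2 libraries with the most Mef2c also had the highest scores of 8 cortical layer markers (the mean of their centred log2 CPM), 0.465 in scramble library 4 and 0.684 in the library labelled knockdown 5, against -0.443 to 0.0951 in the other 8. The 8 markers summed to 386 to 453 CPM in the scramble and 367 to 446 CPM in the knockdown libraries. They did not move together. Cux2 was highest in the same 2 libraries, at 84.4 and 85.9 CPM. Bcl11b (117 CPM) and Tle4 (54.0 CPM) were lowest in the library labelled knockdown 5, and Fezf2 was lowest among the scramble libraries in number 4 (33.8 CPM). Foxp2 and Rspo1, at no more than 6.46 and 5.55 CPM, weigh as much in the score as the others. In the fit without scramble library 4 and the library labelled knockdown 5, 4 of the 10 family members were called lower, beside 1029 of all genes called. They were Tenm1, Tenm2, Adgrl3 and Flrt1. With the cortical score as a covariate 6 were, beside 2677 of all genes called. These were Tenm1, Tenm2, Tenm3, Adgrl3, Flrt1 and Flrt2, and Tenm4 was not called (edgeR adjusted p = 0.0517). The fit with all libraries and no covariate called 1766 of 14393 genes. All 6 CA3 markers counted, among them Grik4 and Neurod6, had reads in every library, and so did markers of the fields beside CA3. The 6 CA3 markers summed to 426 to 483 CPM in the scramble and 385 to 549 CPM in the knockdown libraries. Their score was lowest in knockdown library 4 (-0.308) and the library labelled knockdown 5 (-0.332). It was 0.164, 0.146 and 0.276 in knockdown libraries 1 to 3 and -0.0678 to 0.123 in the scramble libraries. The CA3 score was not used as a covariate. The 5 markers of CA1 summed to 613 to 671 CPM in the scramble and 529 to 648 CPM in the knockdown libraries. Those of dentate granule cells summed to 463 to 604 CPM and 435 to 688 CPM in the same order. The 4 choroid plexus markers varied widely between libraries. They summed to 67.3 to 1952 CPM in the scramble and 45.3 to 2723 CPM in the knockdown libraries. All levels are those of the whole dissected piece. In such bulk tissue fewer cells of a type and less RNA per cell cannot be told apart.

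The family spans a wide range of gene sizes. In GENCODE the 4 teneurin genes stretch over 616.3 kb (Tenm3, chromosome 8) to 1229.3 kb (Tenm2, chromosome 11), and each is longer than at least 99.1% of the genes tested. RefSeq draws Tenm3 much longer, from 48225665 to 49522824, so the order of the spans depends on the annotation. Tenm1 lies on the X chromosome (GRCm38 positions 42527866 to 43429126, minus strand, ENSMUSG00000016150) and Tenm4 on chromosome 7 (96171246 to 96911093, plus strand, ENSMUSG00000048078). Adgrl3 on chromosome 5 (81020138 to 81825133, plus strand, ENSMUSG00000037605) is of the same order, at 805 kb. Adgrl1 on chromosome 8 covers 41.9 kb. In GENCODE Flrt1 (13.7 kb, chromosome 19, 7092001 to 7105729) and Flrt3 (20.6 kb, chromosome 2) are compact, and each lies inside a longer gene on the opposite strand, Macrod1 and Macrod2. Their exons shared 0 bases with those host genes. RefSeq draws Flrt1 longer too, from 7087464 to 7166183. The longest annotated transcript was 12.88 kb for Tenm1, 13.17 kb for Tenm4, 9.91 kb for Tenm2, 8.96 kb for Tenm3 and 8.18 kb for Adgrl1. It was 7.1 kb for Flrt2, 6.79 kb for Adgrl3, 6.05 kb for Adgrl2, 5.87 kb for Flrt1 and 3.98 kb for Flrt3. Of the exon bases of Tenm1, 8.25% overlapped those of Sh2d1a on the other strand, which had 0 to 9 reads per library. Of those of Adgrl1, 12.9% overlapped those of Gm10644, which had 7 to 20 reads.

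The annotated start regions differed as well. RefSeq (GRCm38.p6) gave 12 promoter windows, from 250 bases before to 50 bases after a start, for 9 of the 10 genes, all but Flrt1. Of these, 3 are printed because they differ widely in CG dinucleotides, the sites of DNA methylation. They belong to the gene with the largest fold change, to another teneurin and to the latrophilin with the smallest. Capitals mark each CG, and all are written 5′ to 3′ on the gene's strand.
Tenm1 (chrX:43274735-43275034, minus strand): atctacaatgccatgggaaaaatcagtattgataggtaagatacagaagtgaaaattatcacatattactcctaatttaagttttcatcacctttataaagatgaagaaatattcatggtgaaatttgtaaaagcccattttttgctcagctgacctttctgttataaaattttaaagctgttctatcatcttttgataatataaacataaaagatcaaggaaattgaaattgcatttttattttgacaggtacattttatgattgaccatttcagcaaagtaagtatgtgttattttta
Tenm3 (chr8:48674641-48674940, minus strand): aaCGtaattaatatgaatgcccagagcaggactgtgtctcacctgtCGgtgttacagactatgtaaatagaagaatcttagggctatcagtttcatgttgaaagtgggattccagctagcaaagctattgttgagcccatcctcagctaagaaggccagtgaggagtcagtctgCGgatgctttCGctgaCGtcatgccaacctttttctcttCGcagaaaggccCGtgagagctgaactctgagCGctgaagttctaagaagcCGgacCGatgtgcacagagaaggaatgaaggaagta
Adgrl1 (chr8:83899848-83900147, plus strand): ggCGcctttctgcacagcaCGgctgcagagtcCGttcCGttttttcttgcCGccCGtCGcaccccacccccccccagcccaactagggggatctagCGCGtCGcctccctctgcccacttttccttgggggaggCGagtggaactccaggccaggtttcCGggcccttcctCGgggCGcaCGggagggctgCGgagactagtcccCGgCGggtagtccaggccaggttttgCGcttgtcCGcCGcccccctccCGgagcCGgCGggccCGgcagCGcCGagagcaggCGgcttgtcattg
The Tenm1 window held 0 CG dinucleotides, the fewest of the 12, and had a GC content of 27%. The most, 40, stood in an Adgrl3 window that is not printed. The Tenm3 window held 10, and that of Adgrl1 held 28, more than 85.8% of the 32851 windows in the table, whose median was 7. The Tenm1 window's start lies 154.3 kb downstream of the gene's start in GENCODE, and that of Tenm3 169.3 kb, or more for Tenm3 when counted from its RefSeq start. Both are thus annotated inside the gene, and their use in CA3 was not measured. Both strands were searched for the TATA box, the E-box, the cyclic AMP response element and the MEF2 consensus, some of whose forms overlap a TATA box. The TATA box, as TATAAA, stood in 3 of the 12 windows and in 13.6% of all windows. The Tenm1 window held 4 matches to it, some of which overlap. The full cyclic AMP response element, TGACGTCA, stood in the Tenm3 window at position -63 from the start and in 1.79% of all windows. The E-box CACGTG stood in the Flrt2 window and in 7.15% of all. The MEF2 consensus matched 0 of the 12 windows and 3.19% of all. The windows of Tenm2 and Adgrl2 and a window of Tenm4 also lie downstream of the GENCODE start, by 291.7, 35.9 and 40.4 kb. The GENCODE start regions of Tenm1, Tenm2, Tenm3, Adgrl2 and Flrt1 were thus not searched. Sites outside the windows were not searched either.

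In the scramble libraries the family's levels, as CPM per kb of the longest transcript, spread widely. Adgrl1 stood highest at 66.1 ± 5.29 CPM per kb (SD, n = 5), above 94.6% of all tested genes. Tenm2 followed at 18.8 ± 1.22 and Tenm3 at 16.3 ± 1.68 CPM per kb, and their ranges over the 5 libraries met. Below them came Adgrl2 at 12.1 ± 0.887, Tenm4 at 11.6 ± 1.10 and Adgrl3 at 11.6 ± 1.16 CPM per kb. These 3 could not be ordered, since their ranges overlapped, and the ranges of Tenm4 and Adgrl3 also reached that of Tenm3. Flrt3 at 9.68 ± 0.858 and Flrt2 at 8.43 ± 1.26 CPM per kb also overlapped each other, and Flrt3 overlapped Adgrl3. Flrt1 at 3.77 ± 0.455 and Tenm1 at 3.18 ± 0.464 CPM per kb were the lowest and overlapped each other. With the mean length of coding transcripts in place of the longest, Adgrl1 stayed first and Flrt1 and Tenm1 last, while Tenm3 moved from rank 3 to rank 2, Tenm4 from rank 5 to rank 3 and Tenm2 from rank 2 to rank 4.

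**Figure D1:**
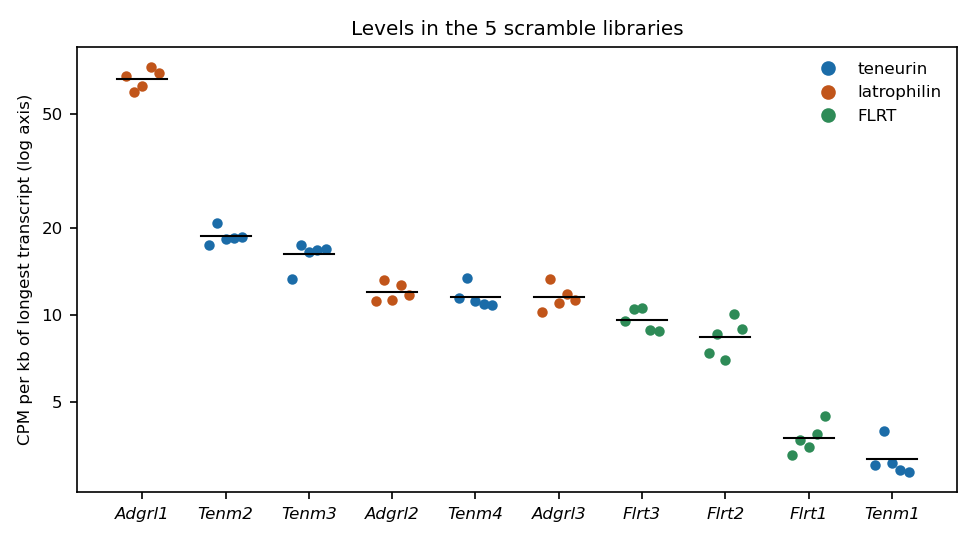
Level of each gene in the 5 scramble libraries, in CPM per kb of the longest transcript on a log axis; points are libraries, bars their means. Adgrl1, at 66.1 CPM per kb, stands apart from the other genes, and Flrt1 and Tenm1 lie lowest.

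The shares within each subfamily were taken over the same longest transcripts. Of the summed CPM per kb of the teneurins, Tenm2 gave 37.7% ± 0.570, Tenm3 32.6% ± 2.19, Tenm4 23.3% ± 1.43 and Tenm1 6.36% ± 0.557 (SD, n = 5 each). Of that of the latrophilins, Adgrl1 gave 73.6% ± 2.67 (SD, n = 5). Flrt3 at 44.4% ± 4.94 and Flrt2 at 38.4% ± 4.15 (SD, n = 5 each) shared most of the FLRT sum, and their ranges overlapped. With mean coding length Tenm3 (45.5 CPM per kb) stood above Tenm2 (20.8), and Flrt2 (11.6) above Flrt3 (10.5), while Adgrl1 stayed first among the latrophilins. Within the scramble group Flrt2 and Tenm1 varied most, with an SD of 14.9% and 14.6% of the mean CPM, and Tenm2 varied least, at 6.51%.

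All 10 genes had a lower fitted level in the knockdown than in the scramble libraries, and 6 of them passed an adjusted p of 0.05 in the edgeR test across all genes. These were all 4 teneurins, Adgrl3 and Flrt1. Among all tested genes 7.61% were lower and called, 4.66% were higher and called, and 12.3% were called in either direction. The members were chosen with this comparison known, so the counts and fold changes describe the genes and nothing is read from them. The median log2 fold change was -0.524 over the 10 genes and 0.016 over all tested genes.

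Tenm1, the X-linked teneurin, had the largest fold change of the family. In scramble libraries 1 to 5 it stood at 39.2, 51.4, 39.6, 37.6 and 36.9 CPM, and, from knockdown library 1 to 5, at 24.5, 19.6, 18.4, 16.2 and 18.5 CPM. Every knockdown library, the library labelled knockdown 5 included, lay below every scramble library. The log2 fold change was -1.08 (SE 0.117), a fitted ratio of 0.475. Of all genes tested, 9.33% had groups that did not overlap, and 6.04% of all genes tested had every knockdown library below every scramble library. The latter held for 5 of the 10 family members. They were Tenm1, Tenm2, Tenm3, Adgrl3 and Flrt1.

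Tenm3, the teneurin with a known role in hippocampal wiring, had 119, 158, 148, 151 and 152 CPM in the scramble group, in the order of their numbers. The knockdown group, in the same order, had 116, 61.4, 92.6, 78.0 and 86.2 CPM. The groups did not overlap, but scramble library 1 and knockdown library 1 came close. Its log2 fold change was -0.748 (SE 0.143).

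Tenm4 stood at 152, 178, 148, 144 and 143 CPM in the scramble and at 146, 75.1, 76.0, 79.2 and 103 CPM in the knockdown libraries. Knockdown library 1 lay inside the scramble range and the other 4 below it, which gave the widest spread of the family, an SD of 31.6% of the mean. The log2 fold change was -0.675 (SE 0.179). Leaving out any library except knockdown 1 ended the call, with edgeR adjusted p values of 0.0531 to 0.0939. Without knockdown library 1 the log2 fold change was -0.875 and the edgeR adjusted p 9.78e-05.

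Tenm2, the teneurin first found as a latrophilin ligand, stood at 174, 207, 182, 183 and 186 CPM in the scramble and at 173, 114, 130, 115 and 150 CPM in the knockdown libraries. The groups did not overlap, although knockdown library 1 came close to the lowest scramble library. Its log2 fold change was -0.449 (SE 0.105), and it lost the call without scramble library 2 (-0.409, edgeR adjusted p = 0.059). Together the teneurins summed to 526 ± 40.4 CPM in the scramble and 339 ± 75.03 CPM in the knockdown libraries (SD, n = 5 each). Tenm2 made up 42.9% ± 1.94 of the sum per kb in the knockdown libraries and Tenm1 4.76% ± 0.688 (SD, n = 5 each).

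**Figure D2:**
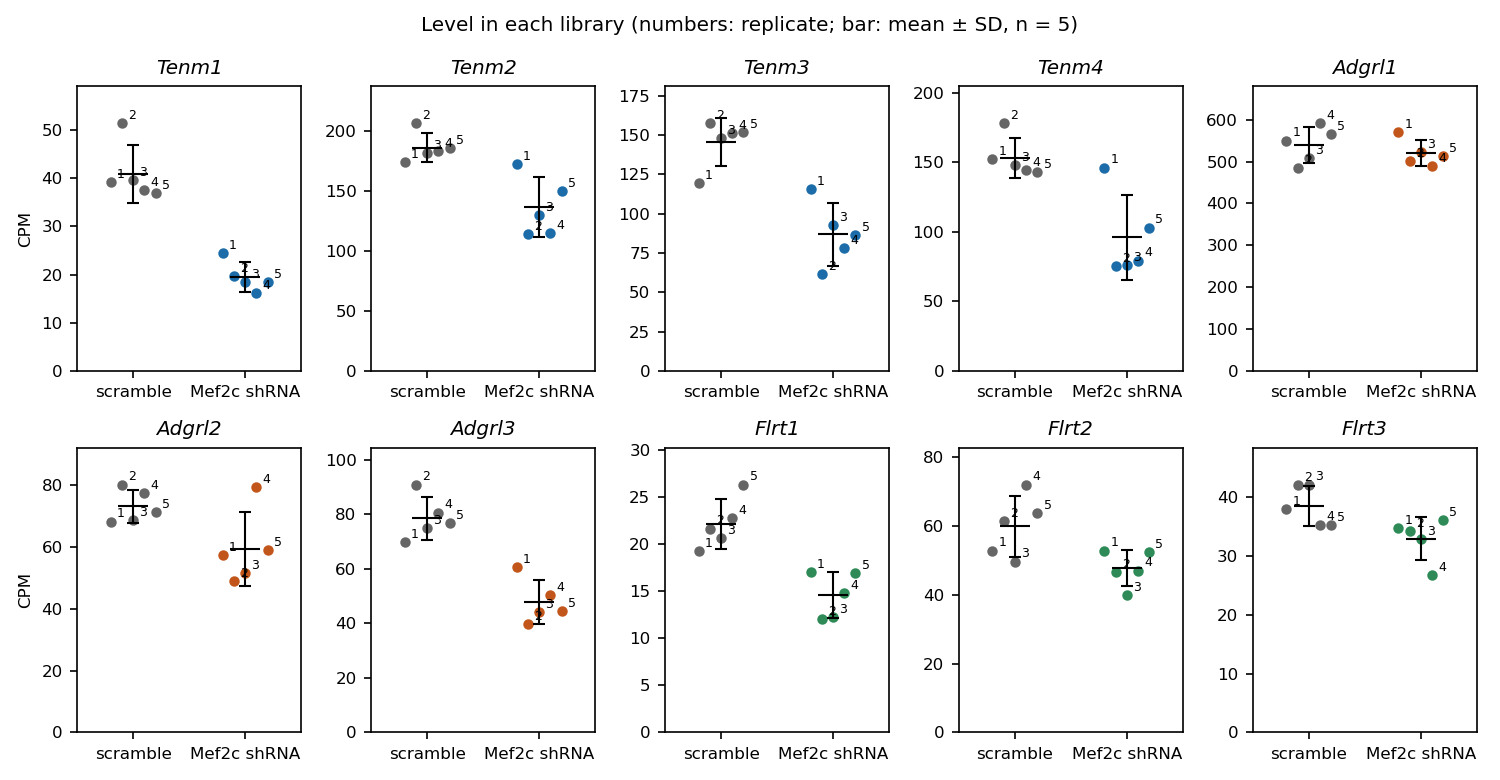
CPM of the 10 genes in every library, from 0; numbers are replicates, the black bar and whiskers the mean ± SD of 5 libraries. The groups are apart in Tenm1, Tenm2, Tenm3, Adgrl3 and Flrt1, and knockdown library 1 is the highest of its group in every gene but Adgrl2 and Flrt3.

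The 3 latrophilins differed in their values. Adgrl3, the receptor that binds FLRT3 and teneurins at excitatory synapses, stood at 69.8, 90.9, 74.8, 80.6 and 76.8 CPM in the scramble and at 60.6, 39.9, 44.3, 50.4 and 44.6 CPM in the knockdown libraries. No knockdown library reached the scramble range, and the log2 fold change was -0.714 (SE 0.105). Adgrl2, the receptor that faces Tenm3 in the hippocampus, stood at 68.2, 80.1, 68.6, 77.3 and 71.1 CPM in the scramble and at 57.4, 49.0, 51.5, 79.2 and 58.9 CPM in the knockdown libraries. Knockdown library 4 lay at the top of the scramble range and the other 4 below it. The log2 fold change was -0.304 (SE 0.113) and did not pass, but passed without knockdown library 4 (-0.431, edgeR adjusted p = 0.0087). Adgrl1, the classical receptor of the spider toxin latrotoxin, ranged from 485 to 592 CPM, with a median of 550, in the scramble libraries. It ranged from 490 to 570 CPM, with a median of 514, in the knockdown libraries. The groups overlapped throughout, with a log2 fold change of -0.056 (SE 0.068). Its share of the latrophilin sum per kb was 79.1% ± 2.75 in the knockdown libraries and that of Adgrl3 was 8.74% ± 0.932 (SD, n = 5 each), beside 12.9% ± 1.57 for Adgrl3 in the scramble libraries.

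Among the FLRT genes, Flrt1 stood at 19.3, 21.7, 20.6, 22.8 and 26.3 CPM in the scramble and at 17.0, 12.03, 12.3, 14.8 and 17.0 CPM in the knockdown libraries, with no overlap. Its log2 fold change was -0.599 (SE 0.121). Macrod1, in which Flrt1 lies, went the other way, from 13.3 ± 1.96 to 18.2 ± 2.73 CPM (SD, n = 5 each; log2 fold change 0.45, SE 0.124). Flrt2, a ligand of Unc5d, stood at 49.6 to 71.9 CPM, median 61.4, in the scramble and at 39.9 to 52.8 CPM, median 47.0, in the knockdown libraries. These ranges overlapped, and the log2 fold change of -0.326 (SE 0.104) did not pass (edgeR adjusted p = 0.0552). Its call depended on single libraries and on the method, and it passed in 7 of 26 alternative settings. It passed without scramble library 3 and without knockdown library 1 or 5, at an edgeR adjusted p as low as 0.0295. With all libraries it passed with DESeq2 (adjusted p = 0.0301) and limma-voom (adjusted p = 0.0222). It also passed in edgeR with the replicate number as a block (adjusted p = 0.0474) or the cortical score as a covariate (adjusted p = 0.0397). Flrt3, a ligand of Adgrl3, stood at 35.2 to 42.1 CPM in the scramble and at 26.7 to 36.1 CPM in the knockdown libraries, with a log2 fold change of -0.227 (SE 0.09) that did not pass.

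Transcript length moved with the fold change over all genes, and the family has long transcripts. The median log2 fold change of the 185 tested genes over 12 kb, to which Tenm1 and Tenm4 belong, was -0.475, with quartiles of -0.599 and -0.321. Of those genes 63.2% were lower and called. Tenm1 lay below that lower quartile by a wide margin and Tenm4 below it by less than its standard error. Of the 719 genes of 8 to 12 kb, 49.9% were lower and called, the median was -0.317 and the quartiles -0.45 and -0.202. Tenm3 lay below these quartiles, Tenm2 lay at the lower of them and Adgrl1 lay above both. Of the 4823 genes of 4 to 8 kb, 10.7% were lower and called, the median was -0.097 and the quartiles -0.221 and 0.023. Adgrl3 and Flrt1 lay farther below the lower quartile than Flrt2 and Adgrl2. These lengths are from GENCODE, and with RefSeq 3′ ends Adgrl3 (9.48 kb) and Flrt1 (10.41 kb) would belong to the genes of 8 to 12 kb. In Flrt3, the member with the shortest transcript, -0.227 stood beside a median of 0.063 for the 5928 genes of 2 to 4 kb. Flrt3 lay below their quartiles of -0.052 and 0.176. Of those genes of 2 to 4 kb, 1.43% were lower and called.

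**Figure D3:**
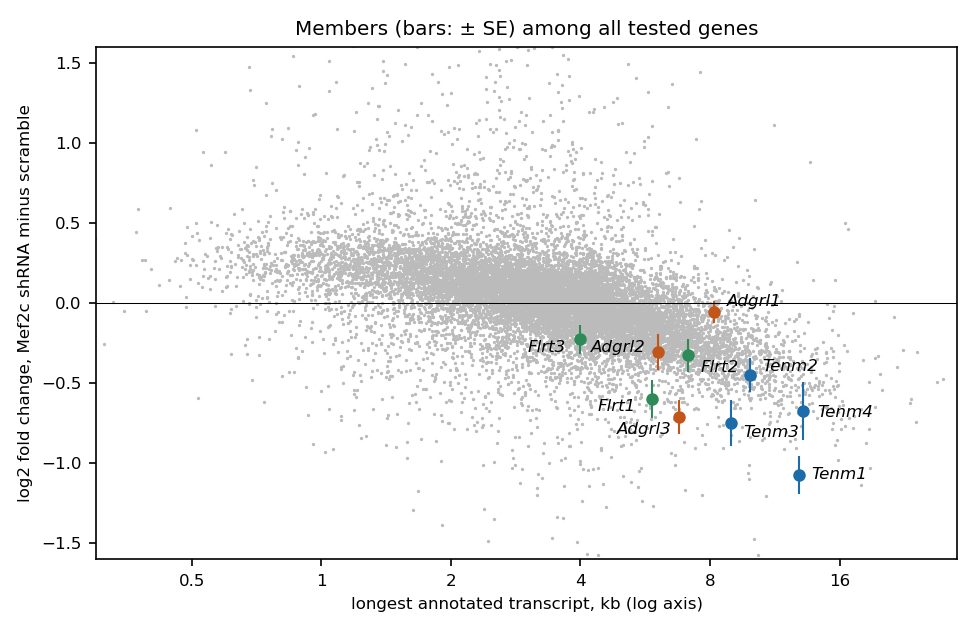
Log2 fold change of each tested gene (grey) against its longest transcript on a log axis, with the 10 family members in colour and bars of ± SE; genes beyond the axis limits are not drawn. Tenm1, at -1.08, lies lower than most genes of its length, and Adgrl1, at -0.056, higher than most.

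A correction that removes a smooth trend with transcript length and GC content from each library lowered the size of every fold change but that of Adgrl1, whose sign turned. After it, 4 of the 10 genes were called, where 1.65% of all tested genes were called and 0.959% were called and lower. Tenm1 kept the largest value, -0.644 (SE 0.093, edgeR adjusted p = 0.00632). Tenm3 (-0.479, SE 0.105, edgeR adjusted p = 0.0462), Adgrl3 (-0.478, SE 0.077, edgeR adjusted p = 0.012) and Flrt1 (-0.491, SE 0.114, edgeR adjusted p = 0.04998) also passed, Flrt1 barely. Tenm4 (-0.333, SE 0.137) and Tenm2 (-0.161, SE 0.085) did not, and neither did Flrt3 (-0.187), Adgrl2 (-0.102) and Flrt2 (-0.069). Adgrl1 turned to 0.139 (SE 0.048) and did not pass.

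The length used in that correction differs between annotations for 3 of the called genes. RefSeq places the 3′ end 2017 bases past the GENCODE end in Tenm3, 2692 bases in Adgrl3 and 4537 bases in Flrt1. With all transcripts extended to the RefSeq ends, a setting chosen after seeing the data, Tenm1 (-0.673, SE 0.093, edgeR adjusted p = 0.0087) and Adgrl3 (-0.378, SE 0.071, edgeR adjusted p = 0.0207) passed. Tenm3 (-0.434, edgeR adjusted p = 0.056) and Flrt1 (-0.31, edgeR adjusted p = 0.172) then did not.

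**Figure D4:**
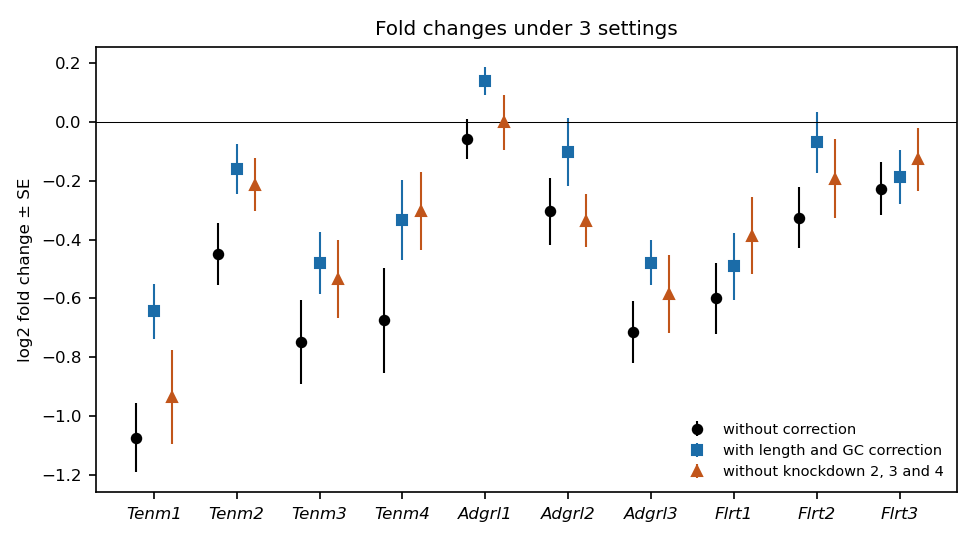
Log2 fold change ± SE of each gene without correction (circles), with the length and GC correction (squares) and without knockdown libraries 2, 3 and 4 (triangles). The triangles rest on 2 knockdown libraries, those labelled 1 and 5. Tenm1 has the lowest value under all 3 settings, and Adgrl1 lies between -0.056 and 0.139.

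Knockdown libraries 2, 3 and 4 also carried the highest scores of microglia and interferon response markers, a score being the mean log2 CPM of the markers, each centred over the 10 libraries. The microglia score was 0.621, 0.847 and 0.481 in these 3 libraries, 0.015 in knockdown library 1, -0.157 in the library labelled knockdown 5 and -0.549 to 0.067 in the scramble libraries. Of 8 microglia markers 5 rose, and the markers summed to 272 to 412 CPM in the scramble and 351 to 730 CPM in the knockdown libraries. The same 3 libraries had the highest astrocyte scores, 0.263, 0.381 and 0.394, against -0.51 to 0.0386 in the other libraries. Their choroid plexus scores were the lowest, -2.53, -1.58 and -2.02, with scramble libraries 2 and 3 next at -1.52 and -1.55. Neither of these scores was used as a covariate. The part of this difference in the family's values was tested only as a covariate and by leaving the 3 libraries out. Without the 3 libraries, Tenm1 had a log2 fold change of -0.936 (SE 0.159, edgeR adjusted p = 0.0628), Adgrl3 -0.585 (SE 0.133), Tenm3 -0.534 (SE 0.134), Tenm4 -0.303 (SE 0.134) and Tenm2 -0.213 (SE 0.091), and none of the 10 genes was called. In that fit edgeR called 0 of all genes, with 7 of the family at an unadjusted p under 0.05. Only 2 knockdown libraries remained in it, number 1 and the one labelled 5, where Mef2c stood at 286 CPM. Whether the calls were lost through the smaller group was not tested. With the microglia score as a covariate the values were -0.969 (SE 0.181) for Tenm1 and -0.557 (SE 0.156) for Adgrl3, and edgeR again called 0 of all genes, with 3 of the family at an unadjusted p under 0.05.

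Within the groups, the levels of the teneurins varied together from library to library, with a Pearson r of 0.46 (Tenm1 and Tenm3) to 0.92 between any pair. After each gene's group mean was taken off its log2 CPM, the r over the 10 libraries was 0.92 for Tenm2 and Tenm4, 0.84 for Tenm2 and Tenm3 and 0.80 for Tenm3 and Adgrl3. Adgrl1 had an r between -0.22 and 0.46 with the other 9 genes, and Adgrl2 between -0.58 (Flrt3) and 0.53 (Adgrl3). These are descriptions: the points share library, depth and the length trend. Among the 12787 genes averaging 2 CPM or more, those most like Tenm1 by this measure included Dock11 (0.941), Zdhhc5 (0.938), Dclre1c (0.925) and Pear1 (0.917). For Adgrl3 the closest was Usp34 (0.985), for Tenm2 it was L1cam (0.958) and for Tenm4 it was Hspa12a (0.943).

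Beyond the family, 26 genes were listed as further receptors, ligands, couplers and anchors of the same proteins. Of these 5 fell and 0 rose, beside 7.61% of all tested genes called lower, 4.66% called higher and 12.3% called in either direction. The list's median log2 fold change was -0.062. After the length and GC correction 1 was called, and it was lower. Of all tested genes 1.65% were then called and 0.959% were called and lower. The list's median was 0.018.

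Of the 8 receptors and co-receptors of FLRT proteins, the netrin receptor Unc5c fell, from 65.7 ± 10.2 to 45.6 ± 7.83 CPM (SD, n = 5 each), a log2 fold change of -0.528 (SE 0.125). After the length and GC correction it stood at -0.184 and was not called. Unc5d, the Unc5 receptor bound by FLRT2 and FLRT3, stood at 26.3 to 37.9 CPM in the scramble libraries and, from knockdown library 1 to 5, at 19.7, 13.9, 13.1, 21.2 and 32.8 CPM. The library labelled knockdown 5 lay inside the scramble range, and the change did not pass (-0.628, SE 0.236). Unc5a had the opposite sign (0.217, SE 0.076) and did not pass, and neither did the guidance receptor Robo1 (-0.328, SE 0.14).

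Among other latrophilin ligands, the presynaptic neurexin Nrxn3 fell. Nrxn3 went from 228 ± 11.6 to 186 ± 24.0 CPM (SD, n = 5 each; -0.295, SE 0.081). After the length and GC correction it stood at -0.01. Nrxn2 had a log2 fold change of 0.047 and the contactin Cntn6 of -0.058, and neither passed.

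The 6 G protein alpha subunits, which carry the receptors' signal, had a median log2 fold change of 0.055 and did not pass in the edgeR test. They ran from -0.189 (SE 0.074) for Gnaq to 0.196 (SE 0.1) for Gnas. Of the 3 Shank scaffolds, which bind the latrophilin tail, Shank2 fell (-0.252, SE 0.076), and it stood at -0.01 after the correction. Adgrl4, the vascular relative of the latrophilins, had a log2 fold change of 0.249 (SE 0.099) and did not pass.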

How the data were processed

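Per the submitters' processing notes, reads were processed with HISAT2 and featureCounts on build mm10. Versions, strand setting and annotation: not given in the sources used here. Whole numbers show the deposited files to hold raw gene counts, for 18453 Ensembl identifiers per library, of which 18445 are in GENCODE M21 (GRCm38). Titles gave the group and number of each library.

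The main test was edgeR 4.0.16 in R 4.3.3 (filterByExpr, TMM, robust quasi-likelihood, knockdown against scramble, Benjamini-Hochberg over 14393 genes). SE is the absolute log2 fold change divided by the square root of F. Log2 CPM used a prior count of 2. Alternatives used DESeq2 1.42.0, limma 3.58.1 and sva 3.50.0. The length and GC correction fits natural splines with 5 degrees of freedom to each library and enters as offsets. The scripts were tested on simulated counts. With at least 196 reads per gene and library, precision depends mainly on how much libraries differ.

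Same-numbered libraries were not paired: the labels do not tie them, and the correlations of their deviations were 0.239, 0.185, 0.403, -0.114 and 0.079.

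The members, lists and alternatives were chosen with earlier results of these data known. Named are all members, Mef2c, called genes of the 26 listed and those with large fold changes, and genes most like a member; a few that this rule names are not reported here.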

Additional observations from a re-analysis of the deposited data

Results flagged for a closer look

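In 3 of the 20 groups of 5 libraries (10 genes, each in scramble and in knockdown) an outermost library stood apart from the rest by Dixon's criterion, where chance gives about 1 in 20. Tenm1 was highest in scramble library 2, at 51.4 CPM against 39.6 CPM in the next library. Tenm4 was highest in the same library, at 178 CPM against 152 CPM. Tenm3 was lowest in scramble library 1, at 119 CPM against 148 CPM. Without scramble library 2 the log2 fold change of Tenm1 was -0.978 (edgeR adjusted p = 0.00182) and that of Tenm4 -0.615 (edgeR adjusted p = 0.0939). Without scramble library 1 that of Tenm3 was -0.814 (edgeR adjusted p = 0.01).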

How the results depend on the processing

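The family count of 6 called genes was 4 (without scramble library 2) to 7 (without knockdown library 1) when each library was left out in turn, and 4 with 1 surrogate variable, with the length and GC correction and at an adjusted p under 0.01. It was 3 with that correction and the replicate block, 2 with RefSeq 3′ ends in it, 0 with the microglia score as a covariate and 0 without knockdown libraries 2, 3 and 4 (edgeR; 3 and 7 genes at an unadjusted p under 0.05). The replicate block alone gave 7, and no paired reading is made of it. DESeq2 and limma-voom each gave 7, and edgeR without the filter on low counts gave 5. The list of 26 genes had 5 called, and 1 (without scramble library 2) to 9 (without knockdown library 1) with each library left out, and 2 without scramble 1, 4 or 5 or knockdown 2 or 4. It had 10 with limma-voom, 7 with DESeq2, 3 with the replicate block, 1 with 1 surrogate variable, 1 with the length and GC correction, 1 with that and the block, 0 with RefSeq 3′ ends, 9 with the cortical and 8 with the dentate score as a covariate, 0 with the microglia score, 0 without knockdown libraries 2, 3 and 4 and 0 at an adjusted p under 0.01 (edgeR; 5, 9, 6 and 13 at an unadjusted p under 0.05 in these 4).

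Over all genes 1766 were called, and 631 (without scramble library 2) to 3305 (without knockdown library 1) with each library left out. Besides these 2 libraries, leaving out scramble 1, 4 or 5 or knockdown 2, 3 or 4 moved it by over 1.5 times, to 674 to 1137. The count was 3402 with limma-voom, 710 with 1 surrogate variable, 238 with the length and GC correction, 207 with that and the replicate block, 261 with RefSeq 3′ ends, 2677 with the cortical score, 1029 without scramble library 4 and the library labelled knockdown 5 together, 379 at an adjusted p under 0.01, and 0 with the microglia score or without knockdown libraries 2, 3 and 4 (edgeR; 2304 and 2590 at an unadjusted p under 0.05). The log2 fold change of Adgrl1 turned to 0.012 with 1 surrogate variable, 0.139 with the length and GC correction, with and without the replicate block, 0.14 with RefSeq 3′ ends and 0.039 with the microglia score; the cause was not tested. The other 9 genes had a negative log2 fold change under each of these settings. Tenm1 ranged from -1.17 to -0.644 and was called under all of them but 2, the microglia covariate (edgeR adjusted p = 0.114) and the fit without knockdown libraries 2, 3 and 4. The latter fit kept only 2 of the 5 knockdown libraries.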
